A study of Homo sapiens with 9 samples.

Results

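The late phase of recovery from heat was followed by setting the transcriptome of HEK293T cells at 18 h after heat (H1R18, 1 sample) against that at 6 h after heat (H1R6, 2 samples), which are 3 of the 9 samples of the time course. HEK293T is a human embryonic kidney line that carries the SV40 large T antigen, and the labels name no further genetic change. Cells kept at 37 °C and never heated (NC), cells taken at the end of 1 h at 43 °C in a water bath (H1), and cells that recovered from it at 37 °C, over 1 h in H1R1, over 6 h in H1R6 and over 18 h in H1R18, were profiled by RNA-seq of total RNA from which ribosomal RNA had been removed. NC, H1, H1R1 and H1R6 had 2 samples each. The labels name no clone and do not say whether samples of a group were separate cultures, so the p-values measure the spread between samples, which may be technical. An untreated sample taken at the time of H1R18 was not analysed here, and time in culture and time since heat cannot be told apart.

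Totals ran from 3814195 counts (an NC sample) to 6221613 (an H1R1 sample), with 5533404 and 5652672 in the H1R6 samples and 3822165 at H1R18. Of 60664 genes, 19211 passed the filter on low counts. The markers chosen for HEK293T were counted in every sample, VIM, NEFL and KRT8 with 160 counts or more, and INA was the lowest of them, at most at 2.00 CPM (counts per 1000000 of the scaled total of the sample). Of 12 markers of other cell types, 7 had no count at H1R18, and COL1A1 carried most of the rest. Their summed level was 80.7 CPM at H1R18 and 75 and 55.1 CPM at H1R6. In a scaling of the 9 samples by their leading differences H1R18 stood apart on the second dimension, at 1.38 against 0.23 or less in all others.

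When cytosolic proteins misfold in heat, heat shock factor 1 drives chaperone genes, and as the damage is cleared the chaperones bind the factor again and the programme closes. The endoplasmic reticulum (ER) has its own sensors, IRE1, PERK and ATF6, which raise ER chaperones and degradation factors when folding in its lumen falls behind. Sterol synthesis is set by SREBP2, a factor held in the ER membrane by INSIG1 while sterols are abundant. Replication-dependent histone mRNAs are made in S phase, end in a stem-loop instead of a poly(A) tail, and are degraded when DNA synthesis stops.

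Between 6 h and 18 h most of the heat shock chaperones and histone genes fell, as did many ribosome assembly factors, proteasome subunits and SR proteins, while part of the ER chaperones, enzymes of cholesterol synthesis, clock genes and ribosomal protein genes rose. At an adjusted p under 0.05 in edgeR, 1370 genes were higher at H1R18 (7.13% of the genes tested) and 1603 were lower (8.34%). The median log2 fold change was 0.70 among the higher genes and -0.74 among the lower ones, and -0.03 over all genes tested. Where the fold change itself had to exceed a log2 value of 1 in the test, 16 genes were higher (0.0833%) and 40 were lower (0.208%). Both H1R6 samples lay on the same side of H1R18 for every gene called. The H1R18 sample has no replicate of its own, so its spread was taken from the pairs of the other 4 conditions. Genes named besides those with the largest changes and the leading members of each list were chosen after their values were seen.

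Leaving out 1 of the H1R6 samples changed these counts. Without replicate 1 of H1R6, 956 genes were higher and 1184 lower, and without replicate 2, 782 were higher and 990 lower. DESeq2 called 868 higher and 1045 lower. Of the changed genes, 46.1% were higher (95% Wilson interval 44.3 to 47.9, counting error only).

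Most of the late changes went past every earlier sample. Of the 1370 higher genes, 1107 (80.8%) were above all 8 other samples at H1R18, as were 3845 of the 19211 genes tested. Of the 1603 lower genes, 1388 (86.6%) were below all 8 others, as were 4074 of the genes tested (21.2%). In either direction, 41.2% of the genes tested lay beyond all 8 others. A gene called against H1R6 had already to differ from 2 of those 8 samples. Among the lists, all 13 higher cholesterol genes, all 8 higher clock genes and all 21 lower proteasome subunits lay beyond all 8 other samples. The same held for every gene called in several other lists, among them S phase, glycolysis, oxidative phosphorylation, lysosome, lamin and fatty acid genes. Of the 21 heat shock genes called, 9 did.

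The calls moved with level, transcript length and gene structure. Of the 3357 protein-coding genes with the highest average level, 14.1% were higher and 21.5% lower, against 2.83% and 2.32% of the 3358 with the lowest. Of the 3357 protein-coding genes with the longest summed exons, 15.6% were higher and 7.92% lower, against 4.11% and 12.2% of the 3358 with the shortest. Of 259 protein-coding genes with 1 annotated exon, 64 were lower (24.7%) and 7 higher, and the median log2 fold change of these genes was -0.44. The replication-dependent histone genes described below were not set apart in these shares. The parts of level and exon length in the results of each list were not tested.

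**Figure D1:**
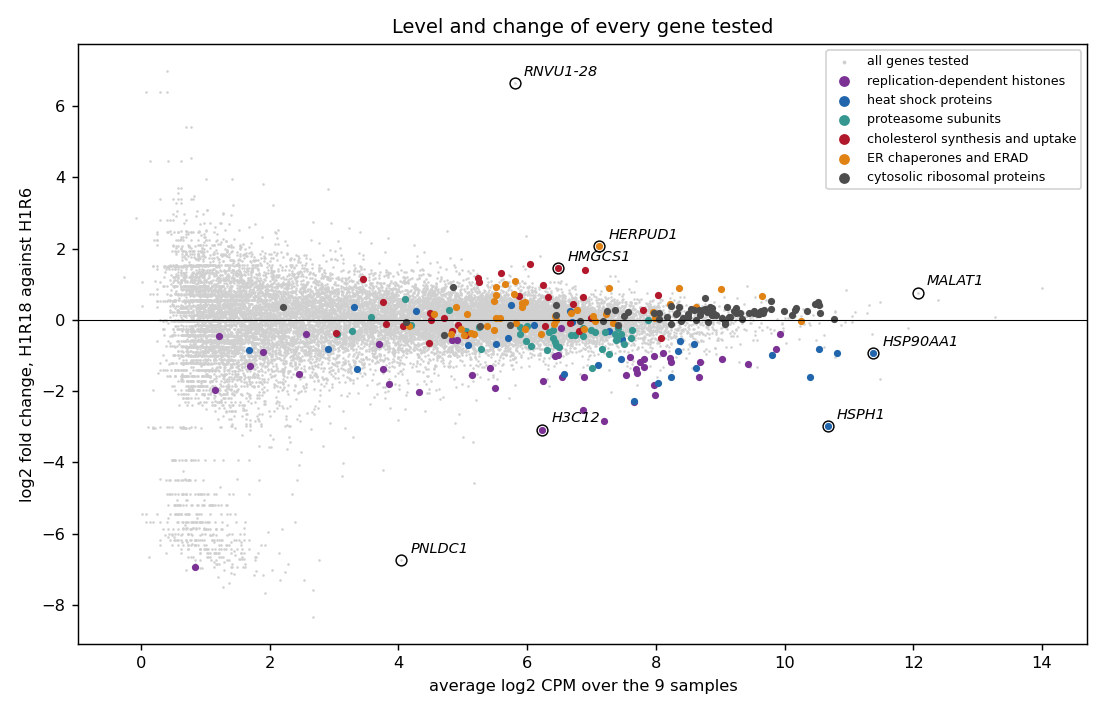
Each point is 1 gene of the 19211 tested, with its average log2 CPM over the 9 samples on the horizontal axis and its log2 fold change at H1R18 against H1R6 on the vertical axis. The histones and most of the heat shock list sit below 0, the cholesterol and ER lists reach above it, RNVU1-28 stands at 6.65, and the spread widens at low levels.

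Most genes of the heat shock protein list fell, which holds cytosolic chaperones and co-chaperones and also HSPD1 and HSPE1 of mitochondria and SERPINH1 of the ER. Of 30 tested members, 21 were lower, none was higher and 9 did not pass, with a median log2 fold change of -0.83 against -0.03 over all genes tested. The summed level of the members was 5053 and 5130 CPM in NC, 21833 and 21767 CPM at H1R1, 13948 and 15498 CPM at H1R6, and 6843 CPM at H1R18. HSPA1A and HSPA1B, the inducible HSP70 genes, had at most 3 counts in any sample and were not tested, so the tested members leave them out. The counting left out reads with more than 1 mapping, and whether that lowered their counts was not tested. The paper reports that HSPA1A protein rose, mainly during recovery.

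HSPH1 (HSP110), the exchange factor of HSP70, stood at 135 and 134 CPM in NC and had risen to 1641 and 1805 CPM by the end of heating. It was at 2719 and 2716 CPM at H1R1, 2396 and 2764 CPM at H1R6, and 326 CPM at H1R18. It was therefore still near its highest level at 6 h, and the fall came after that. The log2 fold change was -2.98 ± 0.09 (SE; edgeR adjusted p = 6.18e-19), the smallest p of the list. HSP90AA1, the inducible cytosolic HSP90, reached its highest level at H1R6, with 4042 and 4353 CPM, and was at 2210 CPM at H1R18, which lies above the 985 and 1002 CPM of NC. HSP90AB1, the constitutive HSP90, went from 2348 and 2538 CPM to 1286. Both had a log2 fold change of -0.93, with an SE of 0.06 for HSP90AA1 and 0.07 for HSP90AB1.

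A further set of chaperone mRNAs had already come down by 6 h and went lower still. DNAJB1, the main HSP40, was at 3681 and 3821 CPM at H1R1, 139 and 219 CPM at H1R6 and 59.5 CPM at H1R18, under the 69.5 and 80.7 CPM of NC. Its log2 fold change was -1.59 ± 0.16 (edgeR adjusted p = 5.57e-08). HSPA8, the constitutive HSP70, was at 435 and 625 CPM at H1R6 and 269.9 CPM at H1R18, the lowest value of the 9 samples, with 433 and 511 CPM in NC. HSPA6, an HSP70 that unheated cells hardly express, was at 0.816 and 3.14 CPM in NC, 26.2 and 58.9 CPM at H1R6, and 8.79 CPM at H1R18. In DNAJB1, HSPA8, HSPA6 and BAG3 replicate 2 of H1R6 was above replicate 1, and H1R18 was below both.

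Other named members of the list were lower as well. STIP1 (HOP), which hands clients from HSP70 to HSP90, went from 455 and 487 CPM to 186 (log2 fold change -1.34 ± 0.10). HSPA4L, a relative of HSPH1, went from 313 and 351 CPM to 97.2 (-1.77 ± 0.12). HSPD1 and HSPE1, the mitochondrial chaperonin and its lid, changed by -0.82 and -1.51. SERPINH1, the collagen chaperone of the ER, was at 202 and 199.8 CPM at H1R6 and 139 CPM at H1R18. HSF1, the gene of heat shock factor 1, which is not counted in the list, rose by a log2 value of 0.46 ± 0.13, and that call was lost without replicate 1 of H1R6 (adjusted p = 0.0605).

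The promoters of 27 tested list members were matched in RefSeq, and 5 of them (18.5%) held the heat shock element on either strand in the 250 bases before the start, against 0.305% of the 11798 matched promoters of tested genes. The element searched was 3 alternating triplets, GAA, TTC and GAA, with 2 bases between neighbours. HSPA6, HSPA8, CHORDC1 and SERPINH1 were lower, and DNAJB6 was not (log2 fold change -0.31, adjusted p = 0.112). The lower call of CHORDC1 (-0.59 ± 0.13) was lost without replicate 2 of H1R6 (adjusted p = 0.072). The promoters of HSPA6, HSPA8 and CHORDC1 are shown as those of 3 lower genes that held the element, chosen after their values were seen. The lines run 5′ to 3′ on the strand of the gene to the base before its start (build GRCh38.p14), with the element in capitals.
HSPA6 (chr1:161524456-161524539, plus strand): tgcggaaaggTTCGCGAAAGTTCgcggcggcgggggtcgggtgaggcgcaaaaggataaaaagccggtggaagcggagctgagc
HSPA8 (chr11:123062137-123062376, minus strand): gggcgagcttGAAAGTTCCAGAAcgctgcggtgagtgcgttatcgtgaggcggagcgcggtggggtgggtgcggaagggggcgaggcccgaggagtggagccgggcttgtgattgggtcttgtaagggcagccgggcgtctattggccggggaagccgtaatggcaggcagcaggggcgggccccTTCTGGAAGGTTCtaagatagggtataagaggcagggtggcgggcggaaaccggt
CHORDC1 (chr11:90223050-90223119, minus strand): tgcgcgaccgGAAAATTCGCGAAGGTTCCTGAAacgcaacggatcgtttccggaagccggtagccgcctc
HSPA8 held 2 matches and CHORDC1 held 3 that overlap each other. A match is a description of these letters only.

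Replication-dependent histone genes had the lowest median of the 25 lists. Of 45 tested, 34 were lower and none was higher, with a median log2 fold change of -1.33. Their summed level was 12044 and 13208 CPM in NC, 4576 and 4933 CPM at H1R1, 9520 and 9521 CPM at H1R6, and 4322 CPM at H1R18. The list thus had its low points at 1 h and at 18 h, with a higher level between them. Of the 40 genes lower by more than a log2 value of 1 in the test, 12 belonged to this list. Many histone genes hardly differ in sequence, and the counting left out reads with more than 1 mapping, so the share of each copy is uncertain. In RNA from whole cultures, fewer cells in a phase or of a type and less RNA per cell cannot be told apart.

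H3C1, a histone H3 gene, was at 217 and 240.4 CPM in NC, 91.8 and 93.2 CPM at H1R1, 176 and 182 CPM at H1R6, and 25.1 CPM at H1R18. Its log2 fold change was -2.83 ± 0.15 (edgeR adjusted p = 1.33e-13). H3C12, a further H3 gene, went from 103 and 107 CPM to 12.4 (-3.08 ± 0.19). H2AC4 and H2AC12, which encode H2A, changed by -2.52 ± 0.15 and -2.30 ± 0.13. The 2 H1R6 values of each of these genes were close together, and H1R18 was the lowest of all 9 samples. H2BC11 (H2B) and H4C3 (H4) changed by -1.60 ± 0.10 and -1.17 ± 0.09.

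The linker histones named here changed by less than H3C1 and H3C12, which were named as among the largest falls of all genes. The core histone gene H4C3, at -1.17, was close to the linker gene H1-3. H1-4 was at 1076 and 1038 CPM at H1R6 and 597 CPM at H1R18 (log2 fold change -0.82 ± 0.09), which is above the 427 and 493 CPM of H1R1. H1-3 went from 302 and 297 CPM to 145 (-1.05 ± 0.11). H1-2 changed by -0.40 ± 0.10 (edgeR adjusted p = 0.00481) and did not pass in DESeq2 (adjusted p = 0.0723).

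**Figure D2:**
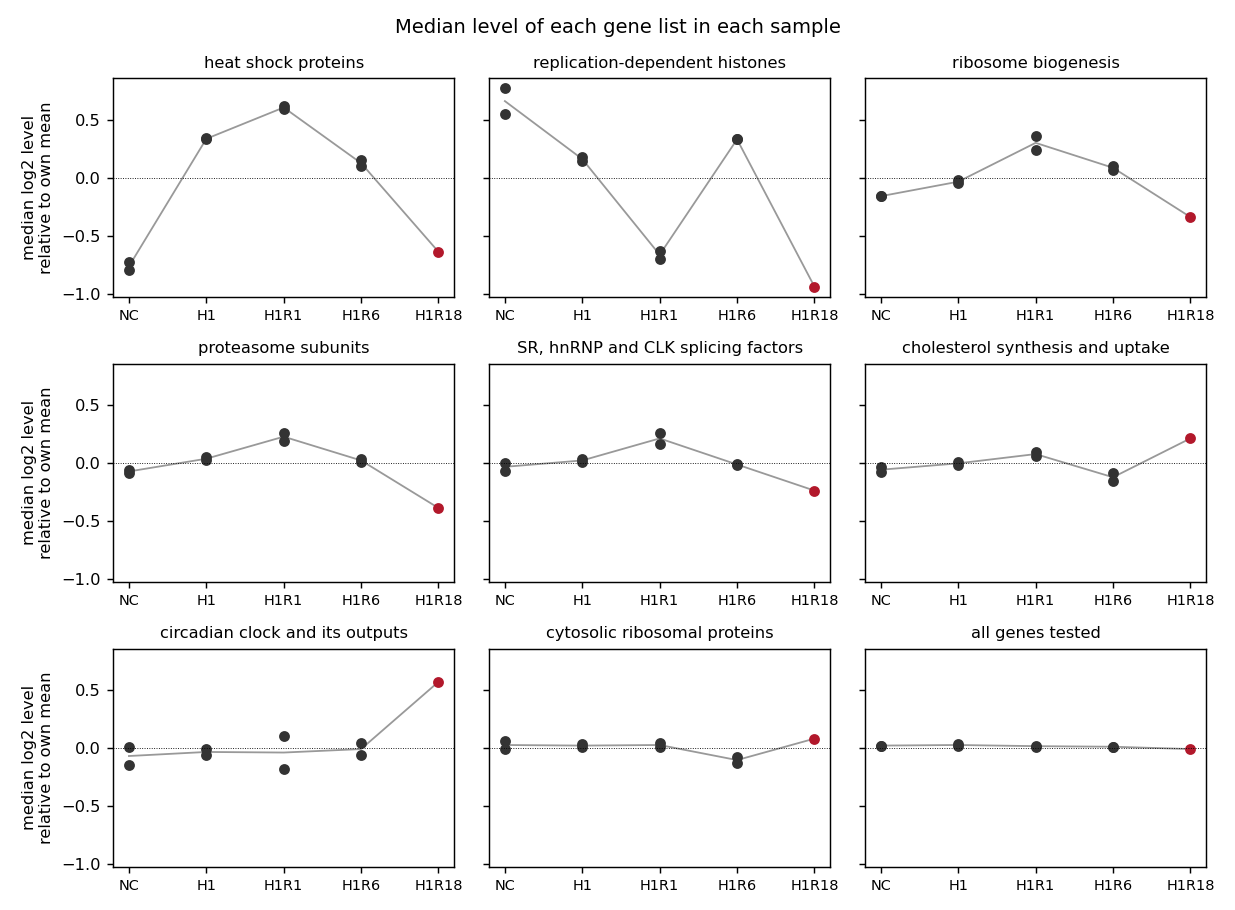
Each panel follows a gene list, and the last all genes tested, over the 5 conditions, and each point is 1 sample (H1R18 in red), placed at the median over members of the log2 level relative to the gene's own mean over the 9 samples. The grey line joins the means of the conditions; heat shock and histone genes end at -0.64 and -0.94 and the clock list at 0.57, while all genes stay between -0.01 and 0.03.

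Some of the other S phase genes were lower too. Of 54 tested, 15 were lower (27.8%), 1 was higher and 38 did not pass, and the median was -0.17. Among the protein-coding genes of highest level 21.5% were lower. CDC6, which loads the MCM helicase, was at 142 and 154 CPM at H1R6 and 75.7 CPM at H1R18 (log2 fold change -0.97 ± 0.13). UHRF1, which maintains DNA methylation at forks, went from 201 and 217 CPM to 113 (-0.88 ± 0.12). PCNA, the sliding clamp, changed by -0.56 and MCM6, a helicase subunit, by -0.62. CDT1, the licensing factor, was the exception at 222 and 217 CPM against 369 CPM at H1R18 (0.75 ± 0.09, edgeR adjusted p = 2.32e-06). MCM4 stood at 437 and 421 CPM and then 413 and did not pass. The letters TTTNGCGC, a core of the E2F site, were found on either strand in the promoters of 11 of 45 S phase genes (24.4%) and 9 of 41 histone genes (22.0%), against 2.46% of all matched promoters. Of the S phase genes with a match, MCM6 and MCM7 were lower, CDT1 was higher and the others, among them E2F1, POLA1 and POLE, did not pass. The histone genes with a match were lower except H3C7. Among the promoters of all lower genes the share was 3.29%.

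In the G2 and mitosis list 10 of 50 were lower and 2 higher, with a median of -0.04, a lower share close to the 21.5% of the protein-coding genes of highest level. ASPM, a spindle pole protein, was at 485 and 481 CPM at H1R6, the highest values of the course, and 287 CPM at H1R18 (log2 fold change -0.75 ± 0.09). MKI67 went from 681 and 686 CPM to 496 (-0.46 ± 0.08), whereas TOP2A was at 816 and 799.6 CPM and then 859 (0.09 ± 0.08). CKS2, a subunit of cyclin-dependent kinases, rose by 0.78 ± 0.14. Without replicate 2 of H1R6 the lower count was 6, and the higher count was 1 whichever H1R6 sample was left out. Among cell cycle inhibitors and p53 targets, 4 of 31 were lower (12.9%) and 2 higher (6.45%), with a median of 0.02. Of all genes tested, 8.34% were lower and 7.13% higher. CCND1 (cyclin D1) went from 78.0 and 97.8 CPM to 37.2 (-1.24 ± 0.17), and CDKN1A (p21) did not pass, with 23.4 and 24.1 CPM and then 17.1.

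Some ER chaperones and ER-associated degradation factors rose. Of 46 tested, 15 were higher, none was lower and 31 did not pass, with a median log2 fold change of 0.17. The summed level was 6793 and 6946 CPM in NC, 8062 and 7855 CPM at H1R1, and 6183 and 6326 CPM at H1R6. It was 8109 CPM at H1R18, which is 130% of the H1R6 mean. The sum weighs members by level, and HSPA5 alone went from 781 and 859 CPM at H1R6 to 1308. The median over members of the log2 level relative to the gene's own mean was -0.13 and -0.14 at H1R6. It was -0.02 at H1R18, against 0.01 and 0.03 in NC. Of the 15 higher genes, 10 were above all 8 other samples at H1R18.

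HERPUD1, a membrane anchor of the ER degradation complex, was at 129 and 130.4 CPM in NC, 199 and 216 CPM at H1R1, 62.4 and 57.2 CPM at H1R6, and 252 CPM at H1R18. It passed from the lowest to the highest of the 5 conditions between 6 h and 18 h. Its log2 fold change was 2.07 ± 0.11 (edgeR adjusted p = 1.33e-13). HSPA5 (BiP), the HSP70 of the ER, was at 513 and 563 CPM in NC, 781 and 859 CPM at H1R6 and 1308 CPM at H1R18 (0.67 ± 0.08). HSP90B1 (GRP94), the HSP90 of the ER, went from 428 and 436 CPM to 787 (0.86 ± 0.08). PDIA4, a disulphide isomerase, went from 256 and 259.6 CPM to 484 (0.91 ± 0.09).

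Some sensor and effector genes of the response were higher as well. XBP1, the factor that IRE1 activates by splicing, was at 95.4 and 109.8 CPM at H1R6 and 191 CPM at H1R18 (0.90 ± 0.11), with 165 and 180.4 CPM in NC. ERN1, which encodes IRE1, went from 51.1 and 51.6 CPM to 103 (1.01 ± 0.17). EIF2AK3 (PERK) changed by 0.54 ± 0.17 (edgeR adjusted p = 0.0366) and was not called under 5 of the 21 other settings. SEC24D, a cargo adaptor of the vesicles that leave the ER, went from 51.3 and 50 CPM to 108 (1.09 ± 0.15). CANX (calnexin) stood at 1091 and 1108 CPM and then 1076 and did not pass.

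The ER stress response element, CCAAT followed by 9 bases and CCACG, was present on either strand in 7 of 42 matched promoters of this list (16.7%), against 15 of 11798 (0.127%) in all. HSPA5, HSP90B1, XBP1, CALR and ERO1B were higher among the 7, and CANX and CRELD2 did not pass. CALR (calreticulin) changed by 0.35 ± 0.09, a call lost without replicate 1 of H1R6 (adjusted p = 0.0583). The promoters of 4 of these genes were chosen after their values were seen, from the 5 higher genes that held the element, and are given 5′ to 3′ on the strand of the gene to the base before its start (GRCh38.p14), with the element in capitals.
HSPA5 (chr9:125241344-125241419, minus strand): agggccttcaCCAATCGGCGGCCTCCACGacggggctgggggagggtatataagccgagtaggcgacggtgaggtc
HSP90B1 (chr12:103930206-103930409, plus strand): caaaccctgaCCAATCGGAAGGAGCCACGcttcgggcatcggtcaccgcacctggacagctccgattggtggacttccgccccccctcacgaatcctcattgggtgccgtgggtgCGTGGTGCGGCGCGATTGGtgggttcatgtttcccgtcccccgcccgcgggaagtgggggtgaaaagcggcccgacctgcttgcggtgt
XBP1 (chr22:28800570-28800631, minus strand): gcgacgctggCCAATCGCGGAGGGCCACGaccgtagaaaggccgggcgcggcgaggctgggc
CALR (chr19:12938374-12938608, plus strand): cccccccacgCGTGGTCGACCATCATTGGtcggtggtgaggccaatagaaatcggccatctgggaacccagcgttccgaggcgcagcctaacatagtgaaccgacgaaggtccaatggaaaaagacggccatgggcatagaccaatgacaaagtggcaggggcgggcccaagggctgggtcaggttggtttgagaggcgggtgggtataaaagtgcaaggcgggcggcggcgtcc
HSP90B1 held 2 matches, 1 on each strand, and CALR held its match on the opposite strand. The window of HERPUD1 held no match to these letters.

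**Figure D3:**
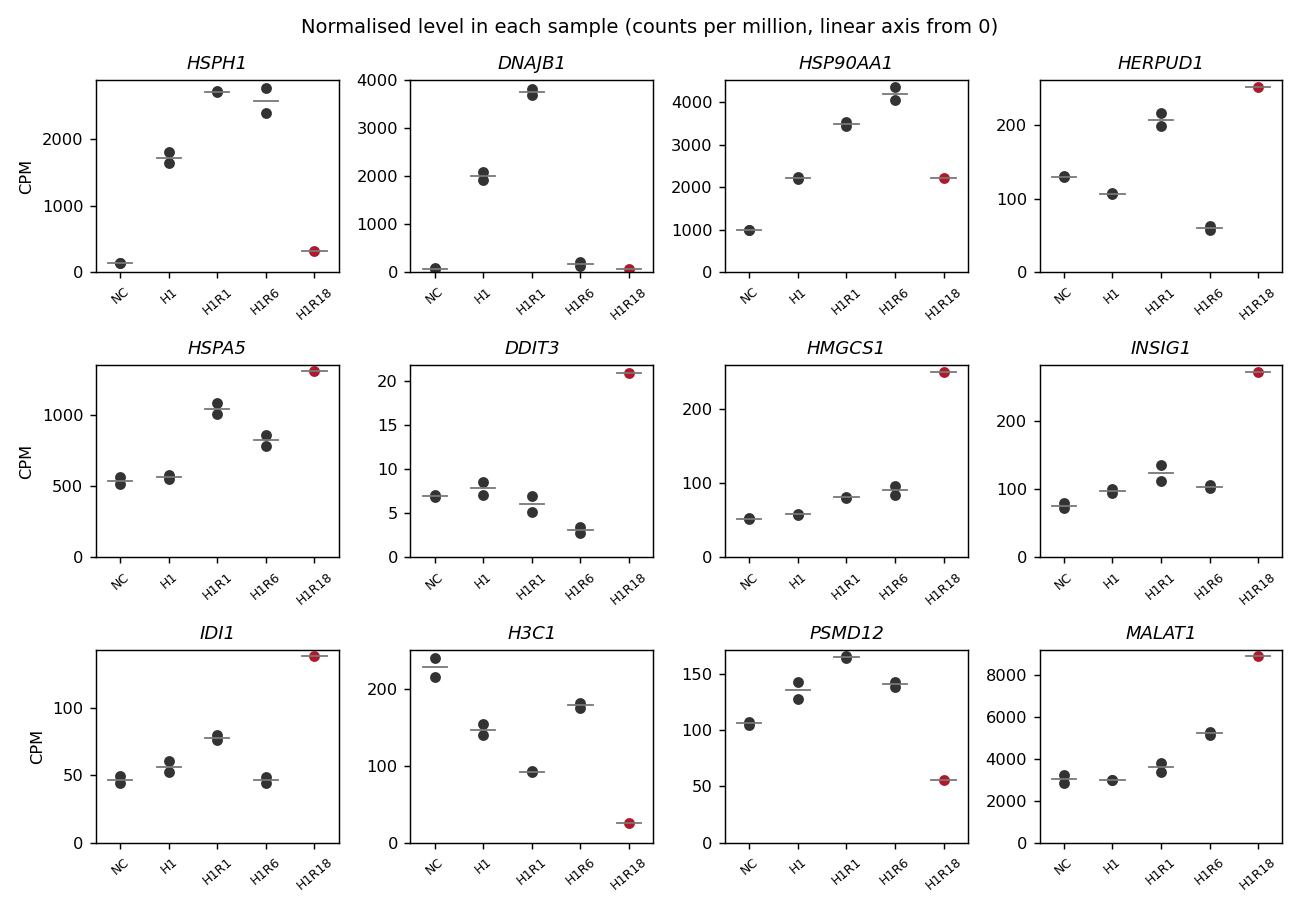
The CPM of 12 genes in each of the 9 samples, with 1 point per sample, a grey line at the mean of each condition and H1R18 in red, on linear axes from 0. HSPH1 and HSP90AA1 are still high at H1R6 and drop at H1R18, HERPUD1 and DDIT3 go from their lowest to their highest level, and HMGCS1, INSIG1, IDI1 and MALAT1 are highest at H1R18.

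Targets of ATF4 and the integrated stress response divided. Of 36 tested, 10 were higher (27.8%) and 4 lower (11.1%), with a median log2 fold change of 0.10. Over all genes tested 7.13% were higher and 8.34% lower. DDIT3 (CHOP), a factor tied to death under long ER stress, was between 2.83 and 8.58 CPM in the 8 earlier samples, with 2.83 and 3.49 CPM at H1R6, and was at 20.9 CPM at H1R18 (2.72 ± 0.39, edgeR adjusted p = 1.34e-05). ATF3, a repressor induced by stress, went from 28.3 and 27.5 CPM to 96.7 (1.79 ± 0.16) and had been at 113 CPM in both H1 samples. PPP1R15A and PPP1R15B, which bring a phosphatase to eIF2, rose by 0.95 ± 0.19 and 0.62 ± 0.09. ATF4 itself was at 388 and 319 CPM and then 390.1 and did not pass.

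Amino acid genes of the same list moved apart. SLC7A5, the light chain of the large neutral amino acid transporter, went from 522 and 564 CPM to 342, the lowest of all samples (-0.67 ± 0.11). SLC3A2, its heavy chain, changed by -0.38 ± 0.10 and was not called without replicate 1 of H1R6 (adjusted p = 0.0786). ASNS (asparagine synthetase) was at 17.3 and 6.45 CPM in the 2 H1R6 samples and 36.7 CPM at H1R18 (1.63 ± 0.33), and did not pass in DESeq2 (adjusted p = 0.0579). CHAC1, which degrades glutathione, was at 14.3 and 2.09 CPM in the H1R6 samples and 12.9 at H1R18, so it lay between them and did not pass. It was called higher in edgeR without replicate 1 of H1R6 (adjusted p = 0.00156). Without replicate 1 of H1R6 the lower count of the list was 2. Of 20 tRNA synthetases 4 were higher (20%) and 4 lower (20%), with a median of -0.10. Protein-coding genes of highest level had 14.1% higher and 21.5% lower. Among the synthetases called were LARS1 (0.39 ± 0.09) and WARS1 (-0.67 ± 0.13). Whichever H1R6 sample was left out 2 were higher, and 3 were lower without replicate 1 and 2 without replicate 2.

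Many genes of cholesterol synthesis and uptake rose. Of 30 tested, 13 were higher, 1 was lower and 16 did not pass, with a median of 0.23, and all 13 were at their highest in the H1R18 sample. The count ranged from 11 to 14 when 1 sample was left out. The summed level was between 2002 and 2449 CPM in the 8 earlier samples and 2868 CPM at H1R18.

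HMGCS1, an enzyme early in sterol synthesis, was at 52.0 and 52.4 CPM in NC, 81.5 and 80.5 CPM at H1R1, 95.7 and 84.4 CPM at H1R6 and 249 CPM at H1R18. Its log2 fold change was 1.47 ± 0.11 (edgeR adjusted p = 2.64e-10). INSIG1, the ER anchor that holds SREBP2 back and is itself a target, went from 106 and 102 CPM to 273 (1.40 ± 0.11). IDI1, the isomerase of isopentenyl diphosphate, went from 49.0 and 44.1 CPM to 138 (1.57 ± 0.14). All 3 were above every earlier sample. MSMO1, a sterol oxidase, and SREBF2 rose by 1.32 ± 0.15 and 0.70 ± 0.10.

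The letters TCACNCCAC of the sterol response element were found on either strand in 0.814% of all matched promoters and 0.888% of those of all higher genes. The share was 10% (2 of 20) in the lamin and nuclear membrane list and 5% (1 of 20) in the fatty acid list. Among the cholesterol genes it was 4.17%, from 1 of 24 matched list members. That member was SREBF2, which encodes SREBP2, and its promoter is shown for that reason, 5′ to 3′ to the base before the start (GRCh38.p14), with the element in capitals.
SREBF2 (chr22:41832962-41833104, plus strand): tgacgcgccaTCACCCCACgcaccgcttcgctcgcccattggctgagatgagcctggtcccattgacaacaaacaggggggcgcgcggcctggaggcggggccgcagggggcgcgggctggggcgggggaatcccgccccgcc

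Fatty acid genes did not follow the sterol genes as a list. Of 22 tested, 2 were higher (9.09%) and 3 lower (13.6%), and the median was -0.04. Of all genes tested, 7.13% were higher and 8.34% lower. FASN, the fatty acid synthase, went from 1389 and 1460 CPM to 964, its lowest level (-0.56 ± 0.08), and ELOVL6, an elongase, changed by -0.67 ± 0.17. FADS2, a desaturase of polyunsaturated fatty acids, went from 15 and 18.0 CPM to 44.2 (1.42 ± 0.21). SCD, the stearoyl desaturase, was at 664 and 656 CPM and then 695 and did not pass. Of 12 genes of cholesterol efflux and LXR, none was called in edgeR or in DESeq2, with a median of 0.13 and 2 at an unadjusted p under 0.05. ABCG1, an efflux pump of this list, was at 6.37 and 6.97 CPM and then 10.9.

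Many clock genes rose. Of 17 tested, 8 were higher and 1 was lower, with a median log2 fold change of 0.42, the highest of the 25 lists. PER1, a repressor of the clock, was between 72.1 and 93.6 CPM in the 8 earlier samples and at 176 CPM at H1R18 (1.05 ± 0.13, edgeR adjusted p = 1.42e-06). TEF, a PAR bZIP output factor, went from 11.3 and 7.32 CPM to 33.1 (1.83 ± 0.31). NR1D2 (REV-ERB beta), a nuclear receptor that represses BMAL1, went from 75.7 and 74.3 CPM to 136 (0.86 ± 0.12). RORA, its activating counterpart, rose by 1.14 ± 0.20, and PER3 by 1.19 ± 0.29.

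The positive limb differed. CLOCK went from 79.3 and 81.3 CPM to 46.5 (-0.79 ± 0.15), and BMAL1 was at 14.2 and 16.7 CPM and then 10.9, which did not pass. PER2 (1.16 ± 0.29) and CRY2 (0.89 ± 0.23) were not called without replicate 1 of H1R6 (adjusted p = 0.091 and 0.0937), nor DBP (0.88 ± 0.24) without replicate 2 (adjusted p = 0.107).

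**Figure D4:**
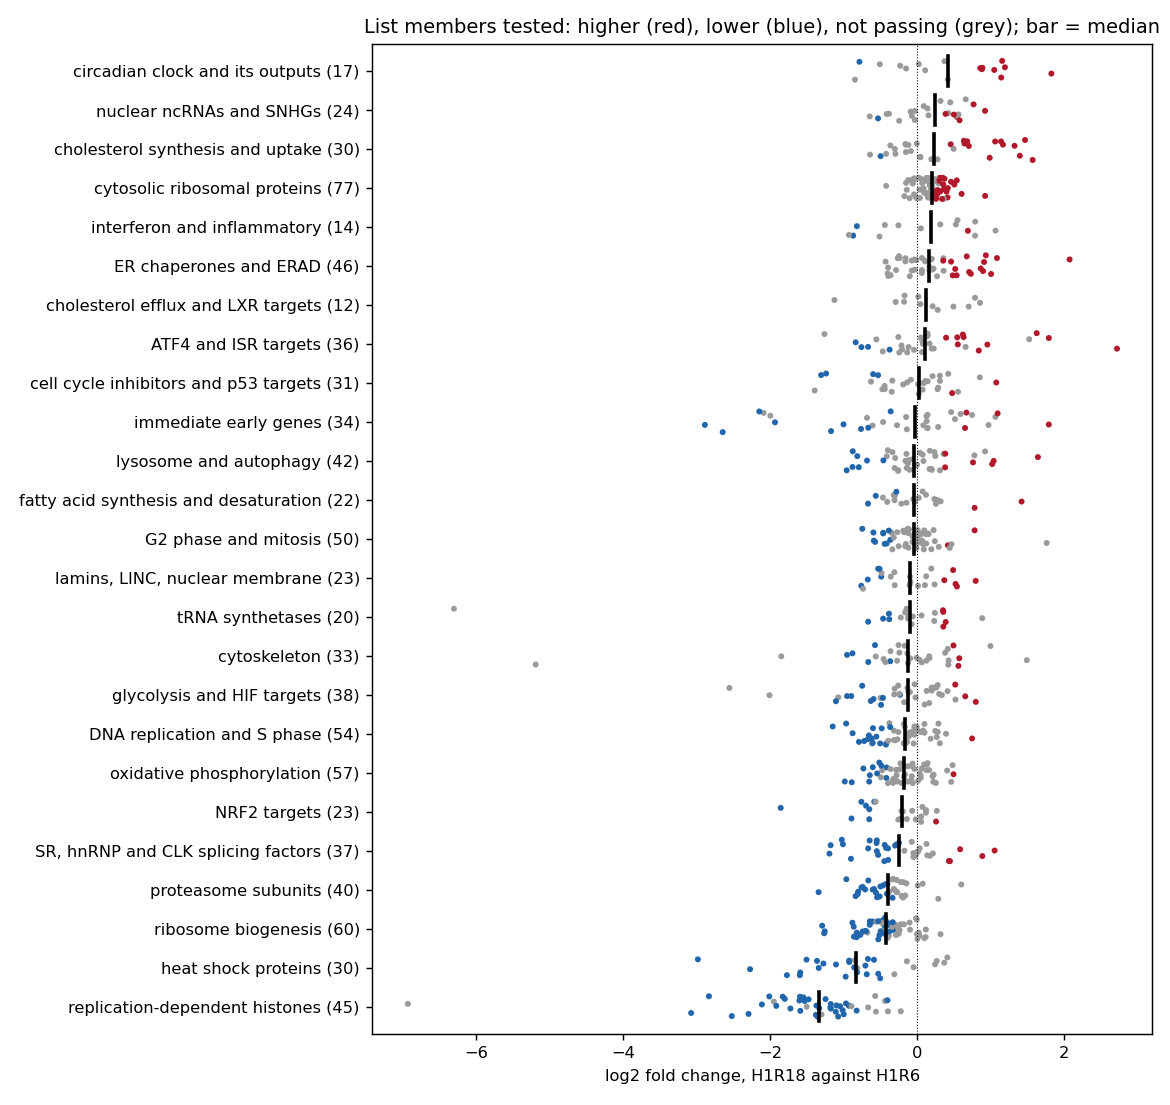
The log2 fold change at H1R18 against H1R6 of every tested member of 25 gene lists (number tested in brackets), ordered by the list median (black bar), with higher genes in red, lower genes in blue and genes that did not pass in grey. The medians run from -1.33 for histones to 0.42 for clock genes.

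Among ribosomal protein genes the calls were all higher, and among the factors that assemble ribosomes all lower. Of 77 tested ribosomal protein genes, 29 were higher and none was lower, with a median of 0.20. Their summed level was 37646 and 38612 CPM at H1R6, the lowest of the course, and 44590 CPM at H1R18. RPL3, of the large subunit, went from 1184 and 1224 CPM to 1709 (0.50 ± 0.08, edgeR adjusted p = 3.08e-05), RPS2, of the small subunit, from 1145 and 1184 CPM to 1602 (0.46 ± 0.07), and RPL28 from 378 and 349 CPM to 552 (0.60 ± 0.09). RPS4X did not pass, at 1611 and 1667 CPM and then 1676. The changes were small, and 16 were called without replicate 1 of H1R6, 18 without replicate 2, and 16 with no filter on low counts.

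Of 60 ribosome biogenesis genes, 31 were lower and none was higher, with a median of -0.42. DDX18, an RNA helicase of the nucleolus, went from 194 and 198 CPM to 106 (-0.88 ± 0.12, edgeR adjusted p = 9.98e-06). NOP56, a core protein of box C/D particles, went from 263 and 300.4 CPM to 180.2 (-0.65 ± 0.11), and NCL (nucleolin) from 1243 and 1266 CPM to 869 (-0.53 ± 0.07). PES1, needed for the large subunit, fell by 0.77. NPM1 (nucleophosmin) was at 826 and 866 CPM and then 858 and did not pass. MYC, an activator of these genes, changed by -0.36 ± 0.10 and was not called without replicate 2 of H1R6 or with the replicate block (highest adjusted p = 0.119).

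Many proteasome subunits fell. Of 40 tested, 21 were lower and none was higher, with a median of -0.40. The summed level was between 3794 and 4800 CPM in the 8 earlier samples and 2976 CPM at H1R18. PSMD12, a lid subunit of the regulatory particle, was at 108 and 104 CPM in NC, 166 and 165 CPM at H1R1, 139 and 143 CPM at H1R6 and 55.6 CPM at H1R18 (-1.34 ± 0.13, edgeR adjusted p = 1.48e-08). PSMB5, which carries the chymotrypsin-like site, went from 151 and 153 CPM to 86.9 (-0.81 ± 0.12), and PSME3, an activator cap, from 179 and 168 CPM to 88.9 (-0.96 ± 0.13). Without replicate 2 of H1R6, 13 were lower.

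Splicing factors moved both ways. Of 37 tested SR, hnRNP and CLK genes, 19 were lower and 5 higher, with a median of -0.25. SRSF3 went from 320 and 324 CPM to 158 (-1.03 ± 0.10, edgeR adjusted p = 3.83e-08) and SRSF6 from 153 and 178 CPM to 72.1 (-1.19 ± 0.13). HNRNPM went from 413 and 427 CPM to 186 (-1.18 ± 0.11), whereas HNRNPU did not pass, at 1790 and 1742 CPM and then 1702. CLK1 and CLK3, kinases that phosphorylate SR proteins, rose by 1.05 ± 0.15 and 0.89 ± 0.13. Each of the 19 lower genes was at its lowest at H1R18.

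Some genes of energy and redox metabolism were lower. Of 38 glycolysis and hypoxia-factor genes, 9 were lower (23.7%) and 3 higher, with a median of -0.13, beside the 21.5% lower among the protein-coding genes of highest level. LDHA (lactate dehydrogenase) went from 469 and 507 CPM to 252 (-0.95 ± 0.10, edgeR adjusted p = 3.84e-08) and ENO1 (enolase) from 1595 and 1731 CPM to 989.8 (-0.75 ± 0.07). PKM and PGK1 changed by -0.63 and -0.59. HK2, PFKM and NDRG1 were the higher genes, with log2 fold changes from 0.52 to 0.80. Without replicate 2 of H1R6 the lower count was 5. Of 57 nuclear genes of oxidative phosphorylation, 12 were lower (21.1%, also near that share) and 1 higher, with a median of -0.18, and 7 were lower in DESeq2 or without replicate 2 of H1R6. The 1 higher call was lost in DESeq2 and whichever H1R6 sample was left out. CYCS (cytochrome c) went from 187 and 212 CPM to 127 (-0.65 ± 0.12), and NDUFA8, of complex I, from 50.4 and 54.1 CPM to 26.4 (-0.99 ± 0.18).

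Of 23 NRF2 targets, 7 were lower (30.4%) and 1 higher (4.35%), with a median of -0.21. Over all genes tested 8.34% were lower and 7.13% higher. PRDX1, a peroxiredoxin, went from 275 and 245 CPM to 154 (-0.76 ± 0.11), and TXN and TXNRD1, thioredoxin and its reductase, changed by -0.65 and -0.58. In DESeq2 and without replicate 1 of H1R6, 4 were lower, and the 1 higher call was lost whichever H1R6 sample was left out. Of 42 lysosome and autophagy genes, 7 were lower (16.7%) and 6 higher (14.3%), with a median of -0.04. The protein-coding genes of highest level had 21.5% lower and 14.1% higher. GLA, the lysosomal alpha-galactosidase, went from 412 and 423 CPM to 237 (-0.82 ± 0.09, edgeR adjusted p = 4.53e-07) and MAP1LC3B, which marks autophagosomes, from 104 and 109.8 CPM to 61.5 (-0.80 ± 0.14). PSAP, the precursor of the saposins, went from 390.1 and 388 CPM to 506 (0.38 ± 0.09). Whichever H1R6 sample was left out, 3 were higher.

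The nuclear envelope was of interest because the study followed nuclear shape. Of 23 genes of lamins, the LINC complex and the nuclear membrane, 5 were lower (21.7%) and 5 higher (21.7%), with a median of -0.10. The shares were 8.34% lower and 7.13% higher over all genes tested. They were 21.5% and 14.1% over the protein-coding genes of highest level. LMNB1 (lamin B1) was at 232 and 220.2 CPM in NC, 237 and 242 CPM at H1R1, 182 and 191 CPM at H1R6 and 110.1 CPM at H1R18 (-0.76 ± 0.11, edgeR adjusted p = 1.70e-05). LBR, the lamin B receptor, was between 337 and 357 CPM in the 8 earlier samples and at 214 CPM at H1R18 (-0.67 ± 0.09). LMNA (lamin A/C) went from 94.5 and 101 CPM to 67.5 (-0.53 ± 0.13), and LMNB2 did not pass, at 466 and 452 CPM and then 429.

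SUN1 and SUN2, which span the inner nuclear membrane and hold the LINC complex, rose by 0.52 ± 0.10 and 0.54 ± 0.16. SYNE3, a nesprin that joins them to the cytoskeleton, rose by 0.80 ± 0.22. The higher calls of SUN2, SYNE3, LEMD2 and EMD were each lost without 1 H1R6 sample, and the higher count was 2 without replicate 1 of H1R6 and in DESeq2, and 3 without replicate 2. The 5 lower calls held under each of these. VIM (vimentin) was at 240.4 and 247 CPM at H1R6 and 254 CPM at H1R18 and did not pass. Of 33 cytoskeletal genes 3 were higher (9.09%) and 5 lower (15.2%), with a median of -0.12. Among all genes tested the shares were 7.13% and 8.34%, and among the protein-coding genes of highest level 14.1% and 21.5%. ACTG1 (gamma actin) went from 2645 and 2540 CPM to 3650 (0.49 ± 0.06), FLNA (filamin A) rose by 0.56 ± 0.07, and TUBB4B and TUBA1B, which encode tubulins, changed by -0.88 ± 0.12 and -0.57 ± 0.11.

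Immediate early genes moved both ways. Of 34 tested, 9 were lower (26.5%) and 4 higher (11.8%), with a median of -0.03. Among the protein-coding genes of highest level 21.5% were lower and 14.1% higher. EGR1 was between 18.8 and 48.6 CPM in the 8 earlier samples, with 26.9 and 34.7 CPM at H1R6, and at 4.14 CPM at H1R18 (-2.89 ± 0.37, edgeR adjusted p = 2.53e-06). FOS went from 12.7 and 19.9 CPM to 2.58 (-2.65 ± 0.45), and FOSB fell by 2.15. JUND, their partner in AP-1, went from 88.8 and 89.6 CPM to 191 (1.09 ± 0.11), and JUN from 279.5 and 337 CPM to 484 (0.65 ± 0.09), below the 1556 and 1515 CPM of H1. MCL1, a short-lived survival factor, went from 255 and 253 CPM to 149 (-0.76 ± 0.10). Of 14 interferon and inflammatory genes that passed the filter, 2 were lower (14.3%) and 1 higher (7.14%), with a median of 0.18. Of all genes tested, 8.34% were lower and 7.13% higher. NFKB1, an NF-kappa-B subunit, was at 34.3 and 33.3 CPM and then 19.1 (-0.82 ± 0.22). These calls moved with the H1R6 samples. Without replicate 1 of H1R6 no gene of this list was higher, and without replicate 2, 1 was lower.

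Several nuclear noncoding RNAs rose. Of 24 tested, 6 were higher and 1 lower, with a median of 0.24. MALAT1, a nuclear-retained RNA of speckles (chromosome 11, 65497688 to 65506516, plus strand, GRCh38), was at 2852 and 3226 CPM in NC, 3393 and 3829 CPM at H1R1, 5164 and 5307 CPM at H1R6 and 8909 CPM at H1R18. The log2 fold change was 0.77 ± 0.06 (edgeR adjusted p = 2.18e-09). It made up most of the summed level of the list, which was 9182 and 9498 CPM at H1R6 and 13792 CPM at H1R18. SNHG7, a host of small nucleolar RNAs, went from 93.6 and 92.9 CPM to 177 (0.92 ± 0.11), KCNQ1OT1 rose by 0.50 ± 0.09, and GAS5 was at 1020 and 1123 CPM and then 1139 and did not pass. The 1 lower call was lost without replicate 2 of H1R6.

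The largest rise at an average log2 CPM of 3 or more was that of RNVU1-28, a variant U1 small nuclear RNA gene (chromosome 1, 144560666 to 144560829, minus strand, GRCh38). It had 10 and 48 counts at H1R6 and 1986 counts at H1R18, or 1.77 and 8.37 CPM against 513, and no earlier sample was above 8.76 CPM. The log2 fold change was 6.65 ± 0.32 (edgeR adjusted p = 5.64e-14). RNVU1-29, on the same chromosome, went from 28.3 and 27.2 CPM to 142, but was at 119 and 35.1 CPM in the 2 NC samples, and did not pass in DESeq2 (adjusted p = 0.0633). RNU1-2 rose by 1.44 ± 0.15. These genes are near-identical copies, and which of them the reads came from is uncertain.

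Among the other genes with the largest rises, ZC3H6, a zinc finger protein, went from 16.3 and 9.07 CPM to 71.3 (2.49 ± 0.25), MVP, the major vault protein, from 5.66 and 7.85 CPM to 33.6 (2.31 ± 0.29), and PLIN5, which coats lipid droplets, from 4.60 and 4.88 CPM to 22.0 (2.21 ± 0.36). CNTN2, OVGP1, PADI2 and TMEM132B rose by log2 values from 1.90 to 2.48. Among the largest falls, PNLDC1, an exonuclease that trims piRNAs, had 12 and 18 counts at H1R6 and none at H1R18, which makes it at least 3.40-fold lower against 3 counts in that sample, and its call was lost without replicate 2 of H1R6 and with counts halved to read pairs (highest adjusted p in edgeR 0.0532). DOK3, an adaptor protein, had 46 and 67 counts and then 2, a ratio of 0.0521 (95% exact interval 0.00129 to 0.300, taking 2 counts as 1 read pair and covering counting error only). FOXF2-DT and KANSL1L-AS1 also fell, but counting did not use strand and reads of their antisense partners cannot be told apart. The intergenic ENSG00000283696 was at 177 CPM in replicate 1 of H1R6, 13.6 in replicate 2 and 9.82 CPM at H1R18, and its lower call rested on replicate 1 (adjusted p = 0.516 without it).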

How the data were processed

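RNA-seq counts of 9 samples of HEK293T were used. The authors deposited counts of reads per gene as whole numbers, in 1 table with a column per sample. Per the labels' processing notes and the file header, the tools named were FastQC 0.11.8, cutadapt 4.1, HISAT2 2.2.1 and featureCounts 2.0.2 on GRCh38, with DESeq2 1.38.3 for the comparisons of the study. The counting command set neither strand nor multi-mapped reads, and 81.8% to 87.5% of the nonzero counts were even, so both reads of a pair were counted and the number of fragments is smaller than each total.

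Genes were kept when their CPM reached that of 10 counts in the median library (1.81) in at least 2 samples, with 15 counts or more in all. edgeR 4.0.16 (R 4.3.3) was fitted to all 9 samples with TMM scaling and a coefficient per condition, and the quasi-likelihood test of H1R18 against H1R6 was adjusted over the 19211 genes by Benjamini-Hochberg, with a threshold of 0.05. Errors are standard errors of the log2 fold change. A fitted fold change of a gene with no count at H1R18 is no bound. With such genes placed at the bound of 3 counts, the medians of the 25 lists did not change.

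Named genes were the 15 largest changes in each direction at an average log2 CPM of 3 or more, the leading members of each list (the 4 smallest adjusted p and the 2 highest levels), and genes that earlier results of these data had named. Others were chosen after their values were seen. The comparison, the members and the lists were chosen with earlier results of these data known. Promoters (250 bases before the start, RefSeq, GRCh38.p14) were matched by symbol for 11798 of 19177 tested symbols. The alternatives tried were other scalings, filters and sample sets, DESeq2 1.42.0, a replicate block, a threshold on the fold change, and leaving out each sample. The code was tested on simulated data. Results of some members of the lists are not reported here.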

Additional observations from a re-analysis of the deposited data

How the results depend on the processing

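Over 262 named genes and 22 alternatives, 5415 of 5729 recomputed values kept their direction and their side of the threshold, 294 were no longer past it, 20 came past it and none reversed. Of 228 named genes called, 187 kept the call under all alternatives except the threshold on the fold change. Of 1100 list counts recomputed, 983 stayed within 1.5 times, 98 were lower and 19 higher. No median of a list changed sign under another scaling.

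DESeq2 called 868 genes higher and 1045 lower. Requiring a log2 fold change beyond 1 left fewer genes by the construction of that test, 16 higher and 40 lower, and 28.6% of them were higher. Of the genes called in the main test, 343 higher and 500 lower ones had a fitted log2 fold change beyond 1. Leaving out 1 sample gave 782 to 1517 higher genes and 990 to 1754 lower genes, with the fewest without replicate 2 of H1R6, and a higher share of 44.1% to 46.6%. That share was 49.7% with 10 counts or more in every sample, 36.2% where low counts were not filtered, 48.8% among protein-coding genes and 50.7% with counts halved to read pairs, and the cause was not tested.

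Differences between replicate 1 and replicate 2 hardly correlated between the conditions that had a pair, at -0.0057 to 0.011. This cannot show whether samples with the same number shared a culture or a batch, which the labels do not say. A replicate block gave 1217 higher and 1408 lower genes (46.4% higher). The H1R18 sample had the second lowest total, a single library cannot show its own spread, and 433 tested genes had no count in it.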

Other observations

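Genes outside the lists also moved by more than a log2 value of 1 in the test, and those given here were chosen after their values were seen. MATR3 (matrin 3) and SFPQ, which are nuclear RNA-binding proteins, went in opposite directions. MATR3 stood at 41.4 and 38 CPM at H1R6 and 113 at H1R18 (log2 fold change 1.51), while SFPQ stood at 802 and 788 CPM and then 321 (-1.31). H1R18 lay beyond both H1R6 samples in each.

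Several regulators were lower at H1R18. On the log2 scale NCOA5, a nuclear receptor coactivator, changed by -2.19, EIF5, a translation initiation factor, by -1.41, MEPCE, the capping enzyme of 7SK RNA, by -1.65, and TRMT6, a subunit of a tRNA methyltransferase, by -1.84. BMP2, a secreted growth factor, changed by -1.60, FZD8, a Wnt receptor, by -1.85, and the long noncoding RNA FENDRR by -2.26. FUT1, a fucosyltransferase, was at 11 and 14.9 CPM in NC, 1.06 and 0.349 CPM at H1R6 (6 and 2 counts) and 9.31 CPM at H1R18 (log2 fold change 3.68), below both NC samples.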
